A study of Mus musculus with 6 samples.

Results

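The nuclear genome of the mouse encodes most subunits of the mitochondrial respiratory chain (complexes I to IV) and of ATP synthase (complex V), and the transcripts of these genes are described here in small intestinal enteroids. Members were the protein-coding genes whose symbols start with Nduf followed by a, b, c, s or v and a digit, with Uqcr, with Cox4 to Cox8 followed by a, b or c, or with Atp5, together with Sdha, Sdhb, Sdhc and Sdhd. The rule used names and gene class and no measured value. It gave 82 of the 40769 genes listed, with 37 in complex I, 4 in complex II, 8 in complex III, 16 in complex IV and 17 in complex V, spread over 19 chromosomes. The name pattern fits the label with a few exceptions: Atp5s and Atp5sl are not subunits of ATP synthase (their later symbols are Dmac2l and Dmac2), Cox7a2l is known as a supercomplex factor, and Ndufa4 is now counted with complex IV. Known subunits with other symbols, such as Cox4i1, Cyc1 and Ndufab1, fall outside the pattern and were kept as a separate list.

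Complexes I and II pass electrons from NADH and succinate to ubiquinone, complex III passes them on to cytochrome c, and complex IV passes them to oxygen. The proton gradient that complexes I, III and IV build drives ATP synthase. Complexes I, III, IV and V combine nuclear subunits with subunits encoded by mitochondrial DNA, whereas complex II is entirely nuclear, and the subunits of a complex are needed in fixed proportions. In the intestine, absorptive enterocytes and crypt base stem cells both use oxidative phosphorylation.

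Polyadenylated RNA was sequenced from jejunal enteroids of C57BL/6 mice, which are epithelial cultures grown in Matrigel with serum-free ENR medium. All cultures carried a piggyBac transposon, a DNA element that inserts into the genome. The insert made PLAGL2, a transcription factor with zinc fingers, constitutively in clone 3 (labelled as high PLAGL2) and in clone 1 (labelled as low), and GFP in the control line. Each of the 3 lines gave 1 library at passage 7 and 1 at passage 5, so that PLAGL2 had 4 libraries and GFP had 2. No untransfected culture was analysed here, each line is 1 transfected culture, and differences between lines and between cultures cannot be told apart. The p-values for lines measure the spread between passages, or between both clones and passages, and not between independent transfections. Anything handled together at 1 passage cannot be told apart from passage.

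Reads recovered from the RPKM steps (reads per length of gene, scaled to library size) came to between 13779306 and 17319950 per library. Mouse Plagl2 stood at 37.2 and 37.2 RPKM in clone 3, 26.5 and 30.9 RPKM in clone 1 and 23.1 and 22.8 RPKM in GFP, at passages 7 and 5. The summed RPKM of 5 epithelial markers was 2246 to 2531 in every library, and that of 6 fibroblast markers was at most 0.0951. In bulk RNA of this kind, fewer cells of a type and less RNA per cell cannot be told apart.

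Promoter sequence was available for 69 of the 82 members, from RefSeq on build GRCm38.p6, as 250 bases before and 50 bases after the transcription start. Factors of the NRF1, ETS and YY1 families are known regulators of nuclear respiratory genes, and an exact motif of each was searched on both strands. The NRF1 core motif CGCATGCG lay in 9 members (13.0%) and in 2.07% of 27025 genes of the same window. The ETS motif CCGGAAG lay in 16 members (23.2%) and in 9.93% of all genes, and the YY1 motif AAGATGGC in 11 members (15.9%) and in 3.19% of all genes. At least 1 of the 3 motifs was present in 30 members (43.5%) and in 14.15% of all genes, and in no member did matches of different motifs overlap. The 27025 genes were taken without regard to gene class or level. Members are protein-coding and mostly abundant, so the sets compared are unlike. A match is a stretch of letters and not a measured binding site. Shown are the 170 bases upstream of the start for Cox6a1, Ndufa11 and Atp5k, where the NRF1 motif lies in that stretch, for Uqcr11, which holds an ETS motif and whose NRF1 motif runs across the start and past the end of the stretch, and for Cox7a1 and Cox7a2, an isoform pair on which the results below turn and which held none of the 3 motifs in this stretch. Starts here follow RefSeq. The Cox7a1 start given with its levels below is from GENCODE M21 and lies inside the printed stretch, so the last bases of that stretch fall within that gene model. Capitals mark the letters of a motif on either strand, and sequences run 5′ to 3′ along the gene's strand.
Cox6a1 (chr5:115348959-115349128, reverse strand): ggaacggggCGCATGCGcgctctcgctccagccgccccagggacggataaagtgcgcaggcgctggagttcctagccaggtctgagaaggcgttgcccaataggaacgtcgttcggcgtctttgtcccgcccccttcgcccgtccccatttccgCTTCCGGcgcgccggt
Ndufa11 (chr17:56717592-56717761, forward strand): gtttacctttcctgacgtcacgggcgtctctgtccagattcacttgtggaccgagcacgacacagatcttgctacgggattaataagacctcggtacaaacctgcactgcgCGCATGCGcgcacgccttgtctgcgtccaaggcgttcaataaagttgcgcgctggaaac
Atp5k (chr5:108434400-108434569, reverse strand): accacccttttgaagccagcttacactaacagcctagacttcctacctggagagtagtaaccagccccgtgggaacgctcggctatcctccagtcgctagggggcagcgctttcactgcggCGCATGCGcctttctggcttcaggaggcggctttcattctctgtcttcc
Uqcr11 (chr10:80406822-80406991, reverse strand): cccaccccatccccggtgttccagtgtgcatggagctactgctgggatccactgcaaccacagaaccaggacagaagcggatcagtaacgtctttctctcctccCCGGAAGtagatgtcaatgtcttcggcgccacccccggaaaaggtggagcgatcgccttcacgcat
Cox7a1 (chr7:30184001-30184170, forward strand): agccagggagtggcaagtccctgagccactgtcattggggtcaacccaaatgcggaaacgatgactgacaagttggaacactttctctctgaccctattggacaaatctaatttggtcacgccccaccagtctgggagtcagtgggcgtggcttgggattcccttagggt
Cox7a2 (chr9:79759854-79760023, reverse strand): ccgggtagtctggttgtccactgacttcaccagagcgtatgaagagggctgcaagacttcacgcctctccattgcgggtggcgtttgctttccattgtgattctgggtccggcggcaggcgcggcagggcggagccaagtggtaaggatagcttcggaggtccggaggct

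The members were among the more abundant transcripts of the enteroids. Of the 82, 80 had reads in all 6 libraries of the gene table, and the other 2 were listed at 0 there throughout. For testing, 78 passed the filter (0.5 RPKM or more in 2 or more libraries), and 2 with reads stayed under it. Over the 78, the median of the mean RPKM was 66.7, against 6.00 for all 16314 genes tested. A mean of at least 100 RPKM was reached by 25 of the 78 members (32.1%) and by 2.42% of all genes tested. The summed RPKM of all members was 7123 to 8066 per library, which is 1.94% to 2.20% of the summed RPKM.

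**Figure D1:**
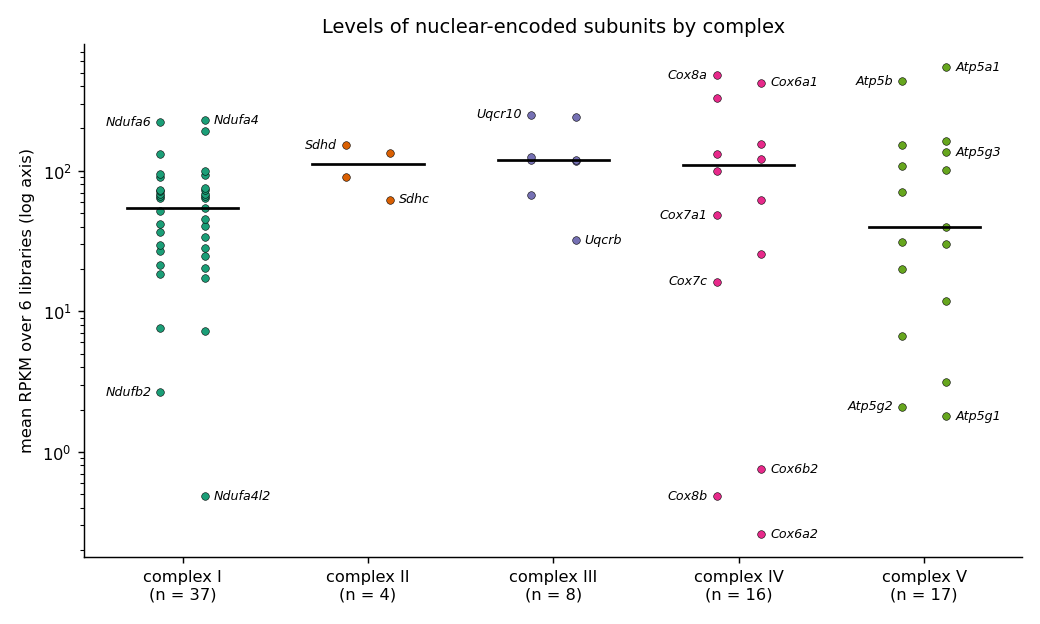
Mean RPKM over 6 libraries (log axis) for each member with a value above 0, by complex, with a line at the median of the members past the filter. Medians run from 39.9 RPKM in complex V (Atp5s and Atp5sl counted) to 120 RPKM in complex III, and single members run from 0.260 RPKM (Cox6a2) to 545 RPKM (Atp5a1). All values are from the gene table, and the order of members and complexes need not hold in the transcript table.

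In complex I, the NADH dehydrogenase, the 7 core subunits that carry the flavin and iron-sulfur clusters had mean levels of 18.5 to 131 RPKM, with a median of 71.4 RPKM. Ndufs1, the largest core subunit, stood lowest among them at 18.5 RPKM. The 30 genes classed here as accessory ranged more widely, from 0.481 to 228 RPKM. Ndufa4 (228 RPKM), now counted with complex IV, and Ndufa6 (222 RPKM), an accessory subunit of the matrix arm, were highest among the genes named for complex I. The lowest was Ndufa4l2, a paralogue of Ndufa4 known from hypoxic cells, with 0.691 and 0.375 RPKM in clone 3, 0.540 and 0.541 RPKM in clone 1 and 0.302 and 0.439 RPKM in GFP, at passages 7 and 5. That is 4 to 10 reads per library, so its differences cannot be resolved at this depth.

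Complex II, succinate dehydrogenase, had its membrane anchor Sdhd highest in the gene table at 152 RPKM, followed by the flavoprotein Sdha at 133 RPKM, the iron-sulfur protein Sdhb at 89.9 RPKM and the other anchor, Sdhc, at 62.1 RPKM. In the deposited transcript table the sums over transcripts had another order, with Sdhc at 231 RPKM, Sdha at 186 RPKM, Sdhb at 133 RPKM and Sdhd at 110 RPKM. In complex III the small subunit Uqcr10 (249 RPKM) and the core protein Uqcrc1 (243 RPKM) were highest. The other core protein, Uqcrc2, at 120 RPKM, the Rieske iron-sulfur protein Uqcrfs1 at 119 RPKM and the hinge protein Uqcrh at 117 RPKM lay close together, and Uqcrb was lowest at 32.1 RPKM. These too are values of the gene table. In the transcript table Uqcrb summed to 161 RPKM, Uqcrh to 296 RPKM and Uqcrc2 to 159 RPKM, and Uqcrfs1 was lowest at 85.8 RPKM.

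Complex V had the highest single member. Its genes Atp5a1 and Atp5b, the alpha and beta subunits of the catalytic head, stood at 545 and 433 RPKM. The central stalk genes Atp5d and Atp5c1 stood at 162 and 152 RPKM and Atp5e at 31.1 RPKM. The 4 peripheral stalk genes lay between 20.1 RPKM (Atp5j) and 70.6 RPKM (Atp5o). In the transcript table these 4 summed to between 120 RPKM (Atp5j) and 315 RPKM (Atp5o), and Atp5e to 123 RPKM, so their low levels hold for the gene table only.

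The 3 genes for subunit c of the membrane ring, which encode the same mature protein, differed widely in the gene table, with 135 RPKM for Atp5g3, 2.10 RPKM for Atp5g2 and 1.79 RPKM for Atp5g1. The deposited transcript table does not show this order. There the transcripts of Atp5g3 summed to 358 RPKM, those of Atp5g2 to 230 RPKM and those of Atp5g1 to 298 RPKM. Similar gaps between the 2 tables were present for Cox7c, with 16.2 RPKM per gene and 451 RPKM summed over transcripts, Ndufb2 with 2.65 and 55.4 RPKM, and Atp5l with 3.12 and 28.98 RPKM. In the GENCODE M21 transcripts, 34 of the 78 members share at least 100 bases at 95% identity or more with another gene, and the other 44 do not. The summed transcript RPKM was 3.63 times the gene RPKM at the median over the 34, with 11 over 5 times, against 1.36 times at the median over the 44, with 1 over 5 times. Over 13353 genes tested in all the median was 1.22 times, with 6.09% over 5 times. How reads with several matches, or shared between isoforms, were assigned is not given in the sources used here, and the levels of these members relative to others are uncertain. The part of gene copies in the gaps was not tested.

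Complex IV, cytochrome c oxidase, is the complex with tissue-restricted isoforms. Its highest members were the ubiquitous small subunits Cox8a (478 RPKM), Cox6a1 (422 RPKM) and Cox6b1 (331 RPKM), and the 9 ubiquitous subunits had a median of 131 RPKM. The 6 isoforms known from restricted tissues were near or at 0 with a single exception. Cox8b, a heart and muscle isoform, had 1 to 6 reads per library, and Cox6a2, another heart and muscle isoform, also had 1 to 6. Cox6b2, a testis isoform, had 8 to 25 reads and took 0.143% to 0.495% of the summed RPKM of Cox6b2 and Cox6b1. Cox7b2 and Cox8c, which are known from testis, were listed at 0 in all 6 libraries of the gene table. The transcript table listed Cox7b2 at 0.169 to 0.221 RPKM and Cox8c at 0.

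The exception was Cox7a1, the heart and muscle partner of the ubiquitous Cox7a2. Cox7a1 (ENSMUSG00000074218, chromosome 7, 30184144 to 30186078, forward strand, mm10) had 23.9 and 49.6 RPKM in clone 3, 38.1 and 57.7 RPKM in clone 1 and 42.3 and 77.6 RPKM in GFP, at passages 7 and 5. In the gene table its mean of 48.2 RPKM thus lay within the range of the ubiquitous subunits (16.2 to 478 RPKM). The low end of that range is Cox7c, whose gene and transcript tables differ widely. In the transcript table Cox7a1 stood at 54.1 RPKM, below every ubiquitous subunit, the lowest of which was Cox7a2 at 96.8 RPKM. Each line was lower at passage 7. Cox7a1 took 20.6% and 30.6% of the summed RPKM of Cox7a1 and Cox7a2 in clone 3, 29.1% and 35.8% in clone 1 and 31.3% and 43.7% in GFP. Cox7a2 itself ranged from 92.01 to 113 RPKM. Among 6 muscle markers, the muscle genes Myh6, Myh7, Ckm and Actc1 were at 0 to 0.309 RPKM and Tnnt2 at 0.521 to 0.881 RPKM. Acta1, skeletal muscle actin, had 11.6 and 5.49 RPKM in clone 3, 19.3 and 18.9 RPKM in clone 1 and 30.1 and 23.5 RPKM in GFP.

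**Figure D2:**
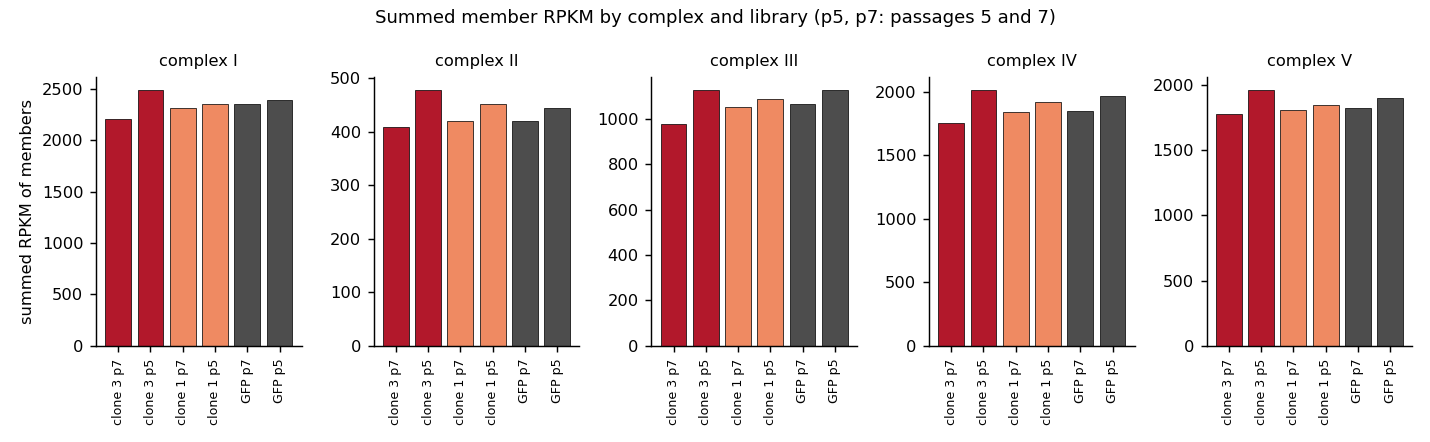
Summed RPKM of the members of each complex in each library, with bars from 0 and 1 bar per library. The 6 bars of a complex are of similar height, and within each line the passage 7 bar is lower than the passage 5 bar in all 5 complexes, most in clone 3.

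Levels of single members varied little between libraries. The SD of log2(RPKM + 0.5) over the 6 libraries had a median of 0.10 over the 78 members, against 0.18 over all genes tested. Among genes with a mean of at least 10 RPKM, it was 0.09 over 69 members and 0.12 over 6043 genes. An SD above 0.20 was found for 5 of the 78 members, namely Cox7a1 (0.57), Cox6b2 (0.38), Atp5g2 (0.33), Atp5l (0.30) and Ndufa4l2 (0.20), of which all but Cox7a1 had a mean under 10 RPKM. Over all genes tested, 44.7% had an SD above 0.20.

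To ask which genes differ when PLAGL2 is over-expressed, the 4 PLAGL2 libraries were set against the 2 GFP libraries. No member was called: limma-trend on log2(RPKM + 0.5), with Benjamini-Hochberg adjustment over all 16314 genes tested and a threshold of 0.05, gave 0 of 78 members, against 0.00613% of all genes. At an unadjusted p under 0.05 there were also 0 members, against 5.95% of all genes, and voom on recovered reads gave 0. With passage as a replicate block 0 members were called, against 0.0123% of all genes, and 2 had an unadjusted p under 0.05, against 11.4% of all genes. The smallest adjusted p of a member was 0.883. The median log2 change was -0.0074 over members and 0.0074 over all genes tested, with 43 of 78 members lower, against 47.8% of all genes, and 35 higher. For 73 of the 78 members the 95% interval of the log2 change lay within 0.5 in either direction. By complex the medians were -0.0062 in complex I, 0.01 in complex II, -0.03 in complex III, -0.01 in complex IV and -0.0073 in complex V.

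The members furthest from 0 in that comparison were Cox7a1, Atp5g2 and Ndufa4 on the lower side, and Atp5l, Ndufa4l2 and Cox6b2 on the higher side. Cox7a1 averaged 42.3 ± 14.7 RPKM with PLAGL2 (SD, n = 4) and 59.9 ± 24.98 RPKM with GFP (SD, n = 2), and the groups overlapped over both passages. Within each passage both clones lay below GFP. Its log2 change was -0.51 (SE 0.39, limma-trend adjusted p = 0.976, and 0.420 with passage as a replicate block). The change was -0.07 without GFP at passage 5 and -0.94 without GFP at passage 7. Each of these leaves GFP at 1 passage only, so passage is mixed into the change. Ndufa4 had 205 and 249 RPKM in clone 3, 220 and 207 RPKM in clone 1 and 242 and 244 RPKM in GFP, at passages 7 and 5, so that clone 3 spanned the GFP values (log2 change -0.14, adjusted p = 0.976). Atp5l, a membrane subunit of ATP synthase, rested on 14 to 33 reads per library (log2 change 0.35, adjusted p = 0.930).

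Groups that did not overlap were rare among members. All 4 PLAGL2 libraries lay below both GFP libraries for 2 of 78 members, against 6.6% of all genes, and above them for 2, against 7.96% of all genes. Among the lower ones was Ndufb5 of complex I, and the higher ones were Ndufa7 of complex I and Sdha of complex II, all chosen after their values were seen. Sdha, the succinate-binding flavoprotein, had 138 and 149 RPKM in clone 3 and 128 and 135 RPKM in clone 1, against 123 and 128 RPKM in GFP (log2 change 0.13, SE 0.08, limma-trend adjusted p = 0.950). The separation was narrow, since clone 1 at passage 7 and GFP at passage 5 are alike when rounded, and the 95% interval of the change included 0.

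Neither clone taken alone gave a member past the threshold. For clone 3 against GFP limma-trend called 0 of 78 members, against 0.349% of all genes, with 0 members at an unadjusted p under 0.05 (9.04% of all genes) and 0 by voom. With passage as a replicate block it again called 0 members, against 2.1% of all genes, and 5 members (1 higher, 4 lower) had an unadjusted p under 0.05, against 19.5% of all genes. The median log2 change was -0.0099 over members and 0.01 over all genes. Leaving out clone 3 at passage 5 gave -0.088 and leaving out clone 3 at passage 7 gave 0.075. The extremes were Cox7a1 (-0.73, adjusted p = 0.783, and 0.0634 with passage as a replicate block), Atp5g2 (-0.42) and the complex III core protein Uqcrc1 (-0.18) on the lower side, and Atp5l (0.43), Cox6b2 (0.38) and Ndufa4l2 (0.23) on the higher side. Uqcrc1 had 216 and 235 RPKM in clone 3 and 248 and 261 RPKM in GFP, which did not overlap, and 246 and 251 RPKM in clone 1.

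For clone 1 against GFP limma-trend called 0 of 78 members, against 0.0306% of all genes, again with 0 at an unadjusted p under 0.05 (3.95% of all genes) and 0 by voom. With the replicate block both counts of members were again 0, against 0.0736% and 9.57% of all genes. The median over members was -0.03, with 51 of 78 lower (48.3% of all genes), and that over all genes was 0.0046. Cox7a1 (-0.29), Atp5g2 (-0.22) and Ndufa4 (-0.18) were lowest, and Atp5l (0.27), Ndufa4l2 (0.26) and the small complex I subunit Ndufs5 (0.17) highest. Both comparisons and the one over all 4 PLAGL2 libraries share the GFP libraries.

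Clone 3 against clone 1 sets the line labelled high in PLAGL2 against the one labelled low, and limma-trend called 0 of 78 members, against 0.0245% of all genes, with 0 at an unadjusted p under 0.05 (5.13% of all genes) and 0 by voom. With the replicate block 0 members were called, against 0.288% of all genes, and 5 (3 higher, 2 lower) had an unadjusted p under 0.05, against 11.8% of all genes. The median was 0.02 over members and 0.0095 over all genes, and leaving out clone 3 at passage 5 or passage 7 gave -0.071 or 0.11 over members. Cox7a1 (-0.44), Atp5g2 (-0.20) and Atp5s (-0.16) were lowest, and Cox6b2 (0.38), Atp5g1 (0.31) and the complex I subunit Ndufb4 (0.27) highest. In the transcript table, 269 transcripts of members were tested and 0 were called for PLAGL2 against GFP, against 0.00447% of 44747 transcripts. At an unadjusted p under 0.05 there were 14 (5.2%), against 5.55% of all transcripts.

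**Figure D3:**
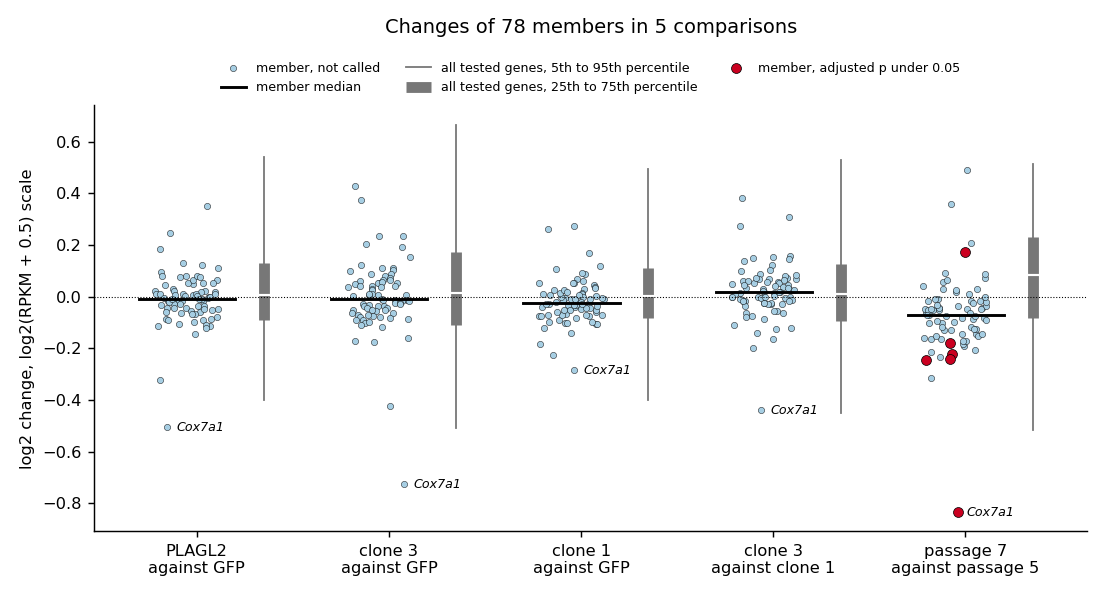
Log2 changes of the 78 members in 5 comparisons (points), with their median (black line) and, in grey, the 5th to 95th and 25th to 75th percentiles of all genes tested with their median in white. Members lie close to 0 between lines, and at passage 7 against passage 5 their median is -0.07 while that of all genes is 0.09, with the 6 called members in red.

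The difference that did reach members was that between passages. At passage 7, 5 members were called lower and 1 higher, among them Cox7a1, the largest fall, and subunits of complexes I, III and V. The fit had line and passage as terms and 2 residual degrees of freedom. It called 6 of 78 members, against 12.1% of all genes. The 1 higher member (1.28%) stands against 6.81% of all genes, and the 5 lower ones (6.41%) against 5.3%, so the lower share is near that of all genes. Of the 78 members, 63 had a negative log2 change, against 35.6% of all genes, and the medians were -0.07 over members and 0.09 over all genes. No test was made of this difference. Genes of like level were not compared here or in the counts below, although members were more abundant (median 66.7 RPKM, against 6.00 RPKM). With quantile normalization 52 of 78 members had a negative change, and the medians were -0.04 over members and 0.03 over all genes. With median-ratio scaling 71 of 79 did, and the medians were -0.15 and 0.02.

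Cox7a1 averaged 34.7 ± 9.65 RPKM at passage 7 and 61.7 ± 14.4 RPKM at passage 5 (SD, n = 3 each), and the passages did not overlap. It fell by 0.83 on the log2 scale (SE 0.09, limma-trend adjusted p = 0.0203). Within lines the log2 difference was -1.04 in clone 3, -0.59 in clone 1 and -0.87 in GFP. Its partner Cox7a2 had 92.01 and 113 RPKM in clone 3, 93.0 and 103 RPKM in clone 1 and 92.8 and 99.8 RPKM in GFP, also without overlap, and its log2 change of -0.18 was not called (adjusted p = 0.0793).

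The other members called were smaller changes of abundant transcripts. Atp5g3 (chromosome 2, 73908447 to 73911326), the most abundant subunit c gene in the gene table, had 123 and 155 RPKM in clone 3, 125 and 140 RPKM in clone 1 and 122 and 145 RPKM in GFP, at passages 7 and 5. Uqcrfs1 (chromosome 13, 30540308 to 30545362), the Rieske protein that passes electrons towards cytochrome c, had 106 and 131 RPKM in clone 3, 111 and 123 RPKM in clone 1 and 110 and 133 RPKM in GFP. In both genes all 3 passage 7 libraries lay below all 3 passage 5 libraries, with log2 changes of -0.25 (SE 0.05, limma-trend adjusted p = 0.0428) and -0.24 (SE 0.04, adjusted p = 0.0405).

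In complex I, Ndufv3 (chromosome 17, 31520115 to 31531331), an accessory subunit of the NADH-binding module, fell to 31.2 ± 0.502 RPKM at passage 7, against 36.6 ± 2.24 RPKM at passage 5 (SD, n = 3 each, log2 change -0.22, limma-trend adjusted p = 0.0420). Ndufa6 (chromosome 15, 82350140 to 82354322) fell to 208 ± 8.53 RPKM, against 236 ± 5.45 RPKM at passage 5 (log2 change -0.18, adjusted p = 0.0449). Ndufb11 (chromosome X, 20615326 to 20617619), an X-linked accessory subunit of the membrane arm, rose instead, to 73.0 ± 1.69 RPKM at passage 7, against 64.7 ± 1.53 RPKM at passage 5 (log2 change 0.17, adjusted p = 0.0496). None of the 3 overlapped between passages, and Ndufb11 lies at the edge of the threshold.

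**Figure D4:**
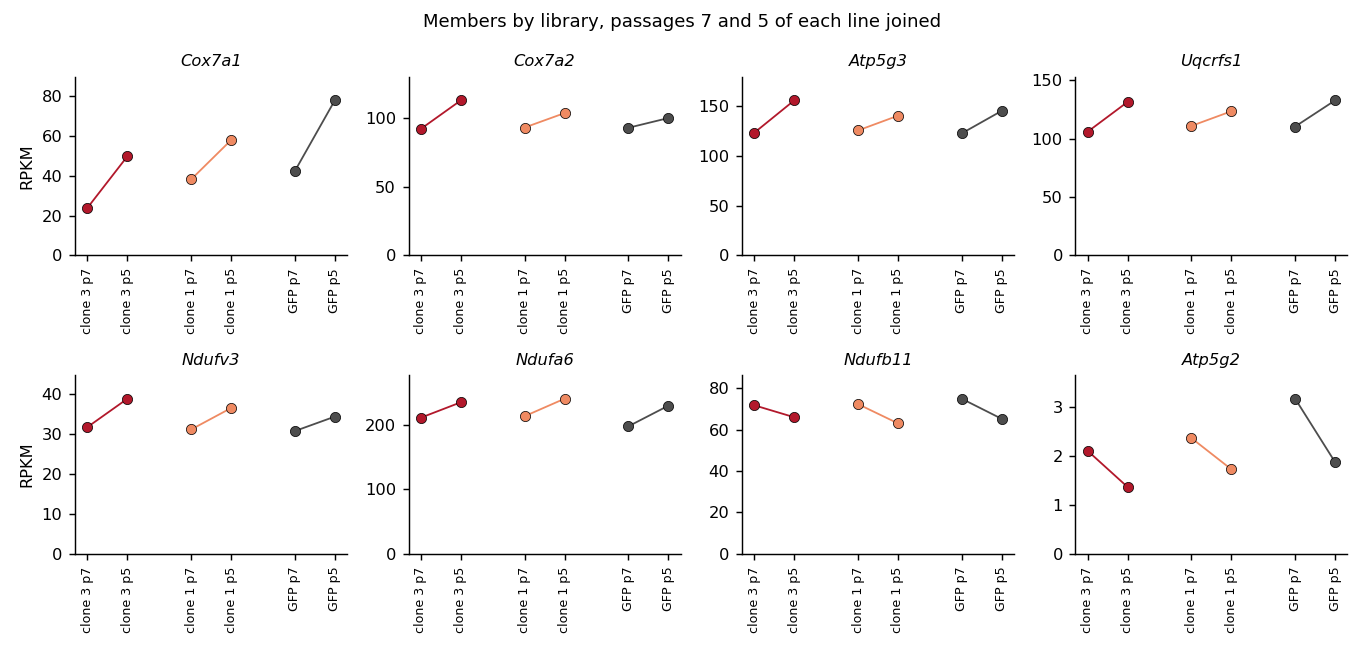
RPKM in each library (axes from 0) for the 6 members called between passages, for Cox7a2, the partner of Cox7a1, and for Atp5g2, with passages 7 and 5 of a line joined. Cox7a1, Cox7a2, Atp5g3, Uqcrfs1, Ndufv3 and Ndufa6 are lower at passage 7 in all 3 lines, and Ndufb11 and Atp5g2 are higher.

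These passage calls were not stable, and calls over all genes moved too. The count of members was 0 without either GFP library or either clone 1 library, where 0 of all genes were called. It was 1, Cox7a1, without clone 3 at passage 5 (291 higher and 471 lower of all genes) or at passage 7 (256 and 474). These fits have 1 residual degree of freedom. The count was 3 without the pairing by line (793 higher and 611 lower of all genes), namely Uqcrfs1, Atp5g3 and Ndufb11. Cox7a1 lost its call there (limma-trend adjusted p = 0.0962). The count was 1 with no filter on low values (237 and 392 of 25468 genes) and 2 with quantile normalization (771 and 888). It was 11 (all lower) with median-ratio scaling. With voom on recovered reads, a setting chosen after seeing the data, it was 13 (1 higher, 12 lower), against 2551 higher and 1402 lower of all genes. With median-ratio scaling 464 genes in all were called higher and 1159 lower, while the values as deposited gave 1111 higher and 864 lower. The number of members with a negative log2 change was 50 to 71 over these settings. At the level of transcripts 0 of 269 from members were called between passages, and 0 of 44747 in all (0%), and at an unadjusted p under 0.05 there were 37 (13.8%), against 13.1% of all transcripts.

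By complex, the median log2 change at passage 7 was -0.05 in complex I, -0.11 in complex II, -0.12 in complex III, -0.10 in complex IV and -0.05 in complex V. All 4 genes of complex II were lower, as were 7 of 8 in complex III, 11 of 12 in complex IV, 29 of 37 in complex I and 12 of 17 in complex V. The passage 7 libraries lay wholly below the passage 5 libraries for 27 of 78 members, against 10.7% of all genes, and wholly above for 3, against 24.5% of all genes. The 27 comprised 9 genes of complex I, 3 of complex II, 3 of complex III, 6 of complex IV and 6 of complex V. The 3 above were Ndufb11, Ndufb2 and Atp5g2. Atp5g2 (log2 change 0.49, adjusted p = 0.0589) and Ndufb2 (0.21, adjusted p = 0.182) are members whose gene and transcript tables differ widely, and Cox6b2 (0.36, adjusted p = 0.399) rests on few reads. On the lower side, Atp5l (-0.32, adjusted p = 0.211) also rests on few reads.

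The passage difference was largest in clone 3. There 67 of 78 members were lower at passage 7, with a median log2 difference of -0.17, against 46 members and -0.03 in clone 1 and 56 members and -0.05 in GFP. All genes tested had medians of 0.08 in each of the 3 lines. In clone 3 the medians were -0.15 in complex I, -0.19 in complex II, -0.22 in complex III, -0.23 in complex IV and -0.17 in complex V. A term for clone 3 against the other lines, added after seeing the data, left 1 residual degree of freedom. It called 0 of 78 members and 0 of all genes (0%) by limma-trend, with 18 members at an unadjusted p under 0.05 (10.6% of all genes), and with so little residual freedom this does not show that the lines were alike. A term for both PLAGL2 lines against GFP likewise called 0 of 78 members and 0 of all genes (0%), with 0 members at an unadjusted p under 0.05, against 3.35% of all genes. A lower value in all 3 lines was found for 37 of 78 members, against 17.9% of all genes, and a higher one in all 3 lines for 4, against 39% of all genes. Among members with an exon length of up to 2000 bases the clone 3 median was -0.22, against -0.10 for longer members. Over protein-coding genes of the same length classes it was 0.05 and 0.07.

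**Figure D5:**
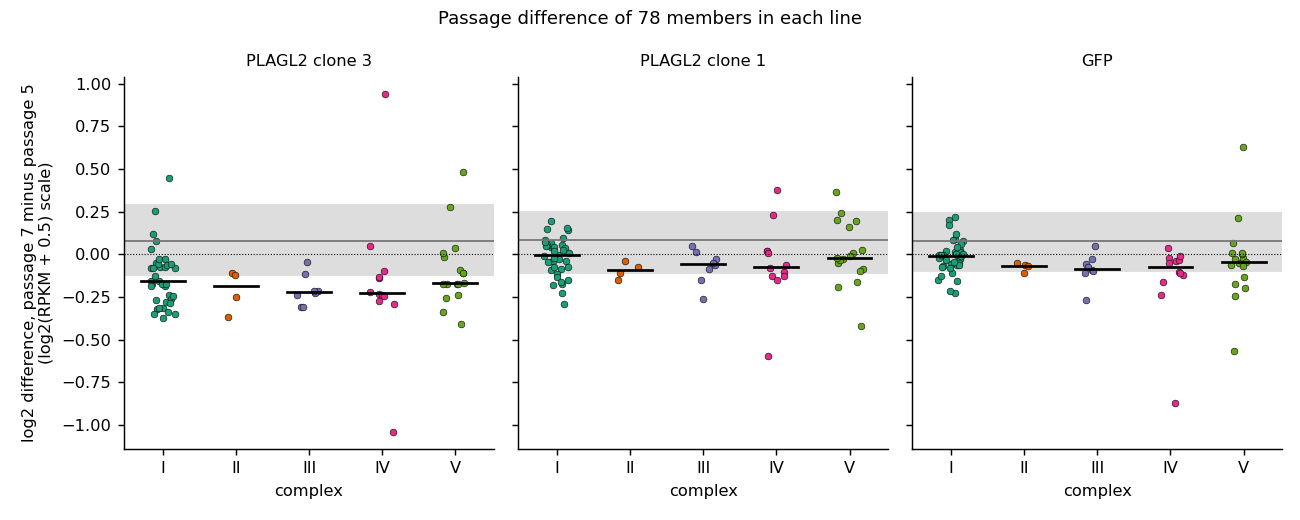
Log2 difference of each of the 78 members between passage 7 and passage 5 within each line, by complex, with black lines at the medians, and for all genes tested a grey band from the 25th to the 75th percentile and a grey line at the median. Members of all 5 complexes lie mostly below 0 in clone 3 (medians -0.15 to -0.23), and closer to 0 in clone 1 and GFP.

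Cell type markers and other mitochondrial genes moved with passage too. All 10 enterocyte markers were called lower at passage 7, with sums of 2982 and 6057 RPKM in clone 3, 3387 and 7706 RPKM in clone 1 and 3055 and 6655 RPKM in GFP, at passages 7 and 5. All 5 markers of crypt base columnar stem cells and 5 of 7 cell cycle markers were called higher. The part of these marker differences in the passage differences of the members was not tested. The lists of other genes, like the members, were chosen with earlier results of these data known.

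Of the 13 subunits encoded by mitochondrial DNA, 8 passed the filter. All 8 had a positive log2 change at passage 7 (median 0.25) and 0 were called, with 0.38 for mt-Cytb (adjusted p = 0.0805) and 0.37 for mt-Nd6 (adjusted p = 0.0695). Their summed RPKM was 4.96 and 3.83 times that of the nuclear members in clone 3, 5.22 and 4.19 times in clone 1 and 5.29 and 4.08 times in GFP, at passages 7 and 5, without overlap between passages. Within clone 3, mt-Nd1 and mt-Nd2 were lower at passage 7 (5946 and 3286 RPKM, against 6365 and 3333 RPKM at passage 5). Of the 8, mt-Nd3 was near the filter, at 0.664 to 1.12 RPKM over the libraries. Within GFP it was lower at passage 7 (0.834 RPKM, against 0.865 RPKM at passage 5). With quantile normalization 7 of the 8 changes were positive and 1 gene was called higher, and with voom on recovered reads 8 were positive and 6 called higher. The genes mt-Co2, mt-Co3, mt-Nd4l and mt-Atp8 were listed at 0 in all 6 libraries and add nothing to the sum. The gene mt-Atp6 was listed above 0 only in GFP at passage 7 (0.213 RPKM), while mt-Co1 stood at 7729 to 9167 RPKM. Why these genes were listed so was not tested. The values do not show that their transcripts were absent, and the ratios hold for the listed values only.

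Of the subunits outside the name pattern, 1 of 6 tested at passage 7 was called lower, Usmg5, a small ATP synthase subunit, with 39.1 and 49.6 RPKM in clone 3, 37.1 and 43.3 RPKM in clone 1 and 32.6 and 40.1 RPKM in GFP (log2 change -0.29, limma-trend adjusted p = 0.0266). Cyc1, which carries the haem of cytochrome c1 in complex III, was at 190 and 230 RPKM in clone 3, 201 and 219 RPKM in clone 1 and 219 and 229 RPKM in GFP (log2 change -0.15, adjusted p = 0.130). For PLAGL2 against GFP 0 of 6 were called, and the largest values were those of Usmg5 (0.21) and Cycs, cytochrome c (0.21).

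Assembly factors, which build the complexes but stay out of them, had a median of 0.02 at passage 7 (-0.06 with median-ratio scaling and -0.0065 with quantile normalization), with 0 of 45 called. The largest values were those of Nubpl (0.33, adjusted p = 0.162), which inserts iron-sulfur clusters into complex I, and the copper chaperone Cox17 (0.23, adjusted p = 0.281). Among 18 genes of the tricarboxylic acid cycle, 2 were called higher and 2 lower at passage 7, while median-ratio scaling gave 0 higher and 6 lower and voom 2 higher and 6 lower. The largest changes were those of Mdh2, malate dehydrogenase (-0.44, adjusted p = 0.0212), and Ogdh, a subunit of the oxoglutarate dehydrogenase complex (-0.27, adjusted p = 0.0261). Of 20 glycolysis genes 0 were called higher and 3 lower, among them Pklr, a pyruvate kinase (-0.98, adjusted p = 0.0101). Of 21 regulators of mitochondrial gene expression 5 were called higher and 1 lower, against 1 and 1 with median-ratio scaling, 2 and 2 with quantile normalization and 4 and 2 with voom. Myc, a transcription factor of growth, rose to 55.0 RPKM in clone 3, 51.6 RPKM in clone 1 and 52.8 RPKM in GFP at passage 7, against 30.7, 35.4 and 34.5 RPKM at passage 5 (log2 change 0.66, adjusted p = 0.0186). Ppargc1a, a coactivator of mitochondrial biogenesis, had 5.29 and 6.54 RPKM in clone 3, 2.29 and 4.46 RPKM in clone 1 and 1.56 and 2.69 RPKM in GFP, at passages 7 and 5 (log2 change -0.58, adjusted p = 0.0605).

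Between PLAGL2 and GFP none of these lists held a gene past the threshold. Over all 4 PLAGL2 libraries, Ppargc1a was at 0.93 on the log2 scale (SE 0.38, adjusted p = 0.831). Esrrg, a nuclear receptor known to act with it, was at 0.22 (adjusted p = 1.00). Of the 20 glycolysis genes 19 had a positive log2 change, with a median of 0.30 against 0.0074 over all genes, among them Gapdh (0.53, adjusted p = 0.727) and Pklr (0.50, adjusted p = 0.980). The tricarboxylic acid cycle had a median of -0.02 with Idh2 at 0.19 and Mdh2 at -0.18, assembly factors one of -0.03 with Cox19 at 0.31 and Sco1 at -0.22, and mitochondrially encoded subunits one of -0.07 with mt-Nd2 and mt-Nd1 both at -0.12. The members' own median of -0.0074 lay among these. The 7 goblet cell markers all had negative values, with a median of -1.23 and 0 called, and 3 of them were called lower in clone 3 alone against GFP. Their sums were 1022 and 925 RPKM in clone 3 and 1630 and 1744 RPKM in clone 1, against 2119 and 2588 RPKM in GFP, at passages 7 and 5, and their part in the members' values was not tested.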

How the data were processed

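Per the submitters' processing notes, the build was mm10 and the tools were STAR, Subread, featureCounts and edgeR, with no roles or versions stated. The authors deposited RPKM values per gene and per transcript, 1 per library, beside a percentage of GC per gene that was not used. Repeated identifiers (614 and 1557) were dropped. Gene reads were recovered as whole multiples within 0.02 of a read, with GENCODE M21 lengths for 67.7% of 25468 genes and fitted lengths for a further 32.3%. A listed 0 allows up to 3 reads (0.173 to 0.218 RPKM at 1 kb), covering counting error only. Because RPKM are not counts, limma-trend (limma 3.58.1, R 4.3.3) was run on log2(RPKM + 0.5), two-sided, for features reaching 0.5 RPKM in 2 or more libraries, with Benjamini-Hochberg adjustment at 0.05. The log2 changes understate those of low genes. Residual degrees of freedom were 4 for PLAGL2 against GFP, 3 between single lines and 2 for passage. Passage pairs the libraries of different lines per the labels, and passage deviations correlated between lines at 0.322, 0.277 and 0.278 over 16314 genes. Scripts were tested on simulated data. Gene copies were sought with blastn 2.17.0+.

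Members, lists and the rule for named genes were chosen with earlier results of these data known. Named were the 2 highest and the lowest member of each complex, every member called, the 3 largest and 3 smallest changes per comparison, tissue-restricted isoforms and their partners, members under the filter, and the 2 largest changes of each list. Some genes that this rule takes are not reported here. Alternatives were a pseudocount of 0.1, no filter, quantile and median-ratio scaling, the replicate block, leaving out each library and, added after seeing the data, voom on recovered reads and terms for passage differences between lines.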

Additional observations from a re-analysis of the deposited data

Results flagged for a closer look

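Cox6b2, the testis isoform of a complex IV subunit, had passage differences of opposite sign in the PLAGL2 and GFP lines and was not called. Its log2 difference at passage 7 was 0.94 in clone 3 and 0.38 in clone 1, against -0.24 in GFP. These rest on 25 and 10 reads in clone 3, 13 and 9 in clone 1 and 8 and 13 in GFP, at passages 7 and 5. A term for the passage difference of the PLAGL2 lines minus that of GFP, added after seeing the data, was 0.90 for Cox6b2 (SE 0.42, limma-trend adjusted p = 1.00), with 1 residual degree of freedom. Of 36 groups of 4 PLAGL2 libraries examined (named members and complex sums), 0 held a library far from the other 3. The 4 libraries differ in clone and passage and the groups share genes. A chance rate for independent libraries therefore does not apply.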

How the results depend on the processing

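Between lines, the count of members called was 0 under every setting run, including the replicate block with passage as a term (0 in each of 4 comparisons and 0 for transcripts), which changed no call of a member. The members' median stayed within the spread of the library medians (0.06), except where a clone 3 library was left out: it then ranged over the fits without 1 library from -0.088 to 0.075 for clone 3 against GFP and from -0.071 to 0.11 for clone 3 against clone 1. Between passages, the count of 6 became 11 with median-ratio scaling (median -0.15), 1 with no filter, 3 with no replicate pairing by line, 2 with quantile normalization and 13 with voom on recovered reads, and ranged from 0 to 1 without 1 library. With fewer libraries these fits have 1 residual degree of freedom. For other changes the cause was not tested. Calls over all genes also moved with these settings between passages, as given above. Over 408 repeats of the 34 named member changes, 358 kept the call or lack of one, 49 lost the call, 1 gained it and 0 called changes reversed. Of the 358, 9 uncalled ones changed sign. Depth limits members with few reads, such as Cox6b2, Ndufa4l2 and Atp5l.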
